A study of Xenopus tropicalis with 26 samples.

Results

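The nuclear genes of oxidative phosphorylation (OXPHOS) were measured as mRNA in cleavage and blastula embryos of the frog Xenopus tropicalis. They were taken by symbol: every gene whose symbol begins with nduf, uqcr or atp5, or with cox followed by a number of 4 or above, and sdha, sdhb, sdhc, sdhd and cyc1, with a mean of at least 1 CPM (counts scaled to library size) in at least 1 group. Of 28778 genes in the table, 94 matched by symbol and 90 met the level; none of these 90 was removed by the later filter on low counts. The 4 that missed it were cox6a2, cox7a1, ndufaf6 and ndufc2, whose highest group means were 0.0264, 0.108, 0.754 and 0.979 CPM, and the lowest members were ndufb4, ndufv3 and cox20, at 1.76, 1.92 and 1.99 CPM. By complex, the 90 genes were 34 subunits and 6 assembly factors of complex I, 4 subunits of complex II, 8 of complex III, 12 subunits and 10 assembly factors of complex IV, and 15 subunits of complex V with its inhibitor atp5if1. They lay on 10 chromosomes, with 4 genes on chromosome 10 and 14 on chromosome 1.

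The respiratory chain passes electrons from NADH (complex I) and succinate (complex II) through coenzyme Q, complex III and cytochrome c to oxygen at complex IV. Complexes I, III and IV pump protons across the inner mitochondrial membrane, and complex V, the ATP synthase, uses that gradient to make ATP. Complexes I, III, IV and V mix subunits from nuclear genes with a few from mitochondrial DNA, whereas complex II is wholly nuclear. A cleaving frog embryo lives on mRNA and mitochondria stored in the egg, and most of its own genes are switched on around the mid-blastula stage.

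The study sequenced polyA RNA of embryos in 13 groups of 2 libraries. At stages 7 and 8 the groups were embryos injected with a morpholino against E2f1 (E2f1 MO) together with E2f1 mRNA, with the MO and mRNA of an E2f1 mutant named deltaDBD, with the MO and Cdkn1a mRNA, with the MO alone, with Cdkn1a mRNA alone, and uninjected wildtype embryos; stage 6 was wildtype only. E2f1 is a transcription factor of cell cycle genes, a morpholino is an antisense oligonucleotide that blocks translation or splicing of its target, and Cdkn1a is an inhibitor of cyclin-dependent kinases. None of the groups analysed here received a control morpholino, or an mRNA other than E2f1, deltaDBD and Cdkn1a. The deltaDBD mRNA serves as the comparison for E2f1 mRNA, while Cdkn1a mRNA has no such counterpart. Neither the number of embryos per library nor separate clutches are given, so the p-values measure the spread between libraries, which may be technical.

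The libraries held 14071614 to 19032710 counts in genes. The injected messages were seen where the labels put them: e2f1 had 2022 to 3038 CPM in the 8 libraries that received E2f1 or deltaDBD mRNA, against 376 to 537 CPM in the other 18. The count does not tell E2f1 from deltaDBD mRNA, and it does not measure how well the MO blocked translation. For cdkn1a, the 8 libraries with its mRNA had 236 to 303 CPM, against 1.08 to 6.09 CPM in the other 18. All 11 stored egg transcripts looked up were found, from zar1 at 7.17 to 17.3 CPM to ccnb1 at 1667 to 2909 CPM. Of 12 markers of follicle, blood and muscle cells, 10 were in the table, none above 0.359 CPM (ckm), and cyp19a1, hbd and myh6 were at 0.

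The second library of the stage 8 MO group stood apart, and it did so in the OXPHOS genes. In it, 81 of the 90 genes were higher than in the first library of the same group, with a median difference of 0.28 on the log2 scale. In the other 12 groups the same median, replicate 2 minus replicate 1, lay between -0.07 and 0.08, and 27 to 62 genes were higher. The median over all 12883 genes tested was 0.000848 in the stage 8 MO group. It moved with gene length: the log2 difference between the 2 libraries had a correlation across genes with log2 length of -0.344 in this group (a description, since genes are not independent), against -0.061 to 0.0927 in the others. The OXPHOS genes are short, with a median of 809 bases of exon against 2708 bases over all genes tested, and 57 of them (63.3%) are under 1000 bases, against 8.38% of all. The 1022 other genes under 1000 bases were also higher in that library, by a median of 0.20, and the 3668 other genes over 4000 bases were lower, by a median of -0.17. What set the library apart was not tested. The members that differed most were uqcr10 and ndufb4, small subunits of complexes III and I, ndufs4, an accessory subunit of complex I, and cox7b of complex IV. In the stage 8 MO libraries 1 and 2, uqcr10 had 0.975 and 2.66 CPM, ndufb4 1.04 and 1.97 CPM, ndufs4 3.78 and 6.91 CPM, and cox7b 4.08 and 7.23 CPM. Every comparison that uses this library is therefore given with and without it, in the second case at least by the median of the 90 genes.

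**Figure D1:**
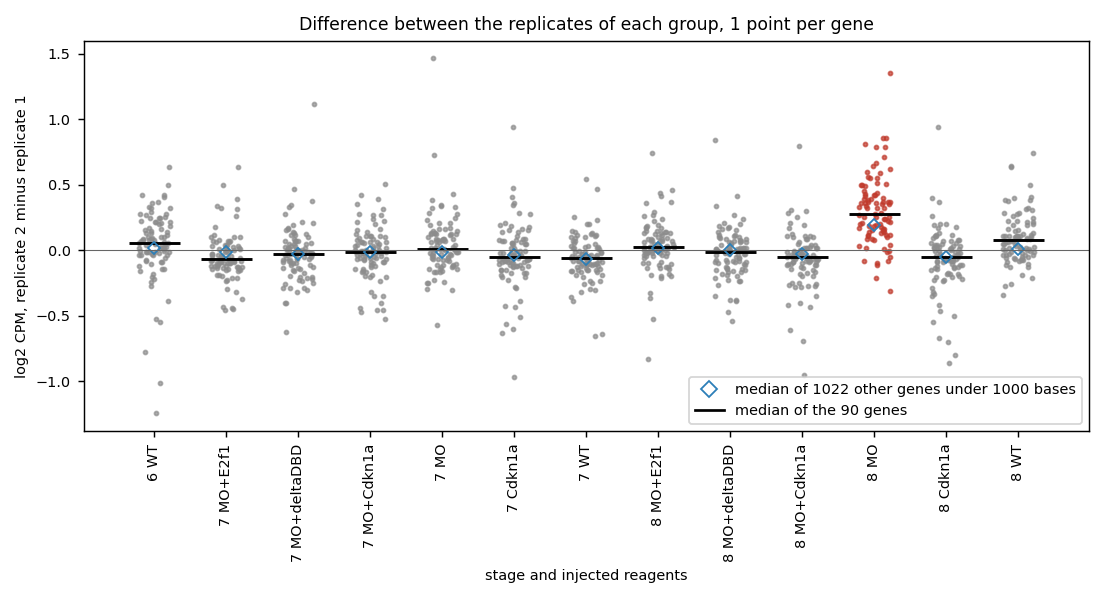
Replicate 2 minus replicate 1 (log2 CPM) for each OXPHOS gene (points) in each of the 13 groups. The black line is the median of the 90 genes and the diamond that of 1022 other genes under 1000 bases; in the stage 8 MO group, in red, they were 0.28 and 0.20, while the median of the 90 lay between -0.07 and 0.08 in the other 12 groups.

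Levels of different genes were compared as CPM per kilobase of summed exon length, averaged over all 26 libraries. On this scale the 90 genes had a median of 20.6 and spanned 0.368 to 318. The highest was uqcrfs1, the Rieske iron-sulfur protein of complex III, at 318 CPM per kb. It was followed by atp5f1b, the catalytic beta subunit of ATP synthase, at 202 CPM per kb, cox6b1, a subunit on the outer face of complex IV, at 183, atp5mc3, a gene for the c-ring subunit of ATP synthase, at 175, and uqcr11, a small subunit of complex III, at 154. The lowest were cox20, an assembly chaperone of complex IV, at 0.368 CPM per kb, ndufv3 at 0.997, ndufb4 at 1.35, cox10, which makes the heme of complex IV, at 1.89, and ndufa5 at 2.28. On this scale, genes of the same complex thus had unequal levels in these libraries. What capture of polyA RNA and the annotated exon length add to these differences was not tested.

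Medians per complex lay closer together than the genes within each. The median level was 19.7 CPM per kb for complex I subunits, with ndufb7 highest at 69.1 and ndufv3 lowest. Complex II had sdhd and sdhc, its membrane anchors, at 52.3 and 16.5 CPM per kb, sdha, the flavoprotein, at 35.1 and sdhb, the iron-sulfur subunit, at 9.87. Complex III had a median of 37.2 CPM per kb, from uqcr10 at 4.24 up to uqcrfs1. The core subunits uqcrc1 and uqcrc2, which occur together in the assembled complex, were at 6.52 and 21.9 CPM per kb. For complex IV the median was 33.4 over subunits, from cox7b at 12.6 to cox6b1, and 18.9 over assembly factors, where cox11, which delivers copper to the enzyme, was highest at 94.6. ATP synthase subunits had a median of 19.5 CPM per kb. Its rotor and catalytic head were uneven: atp5f1b and the central stalk gene atp5f1c had 202 and 139 CPM per kb, whereas atp5f1a, whose product alternates with that of atp5f1b in the head, had 23.1.

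Several subunits had more than 1 paralog among the 90 genes. For the large nuclear subunit of complex IV, cox4i1 had 35.3 and cox4i2 had 19.998 CPM per kb. The copies cox5b.1 and cox5b.2 had 15.5 and 53.1 CPM per kb. Of the c-ring genes, atp5mc1 had 17.2 and atp5mc3 had 175 CPM per kb, although their mature proteins are known to be the same. The common subunit gene cox7a2 had 107 CPM per kb and the related supercomplex factor cox7a2l had 36.1, while the muscle forms cox6a2 and cox7a1 were among the 4 genes below the level for inclusion. Fragments that mapped to several places were not counted, so levels of near-identical copies are uncertain.

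**Figure D2:**
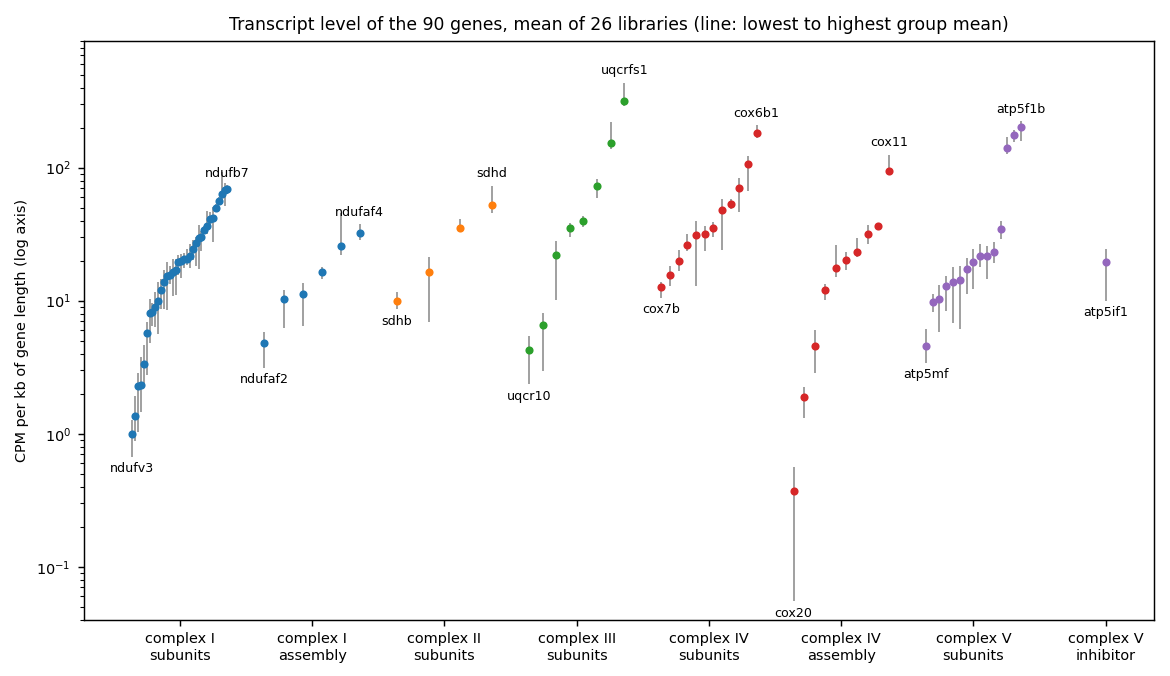
Mean level of each of the 90 genes over 26 libraries, in CPM per kb on a log axis, by complex and by subunit or assembly factor. Levels ran from 0.368 (cox20) to 318 (uqcrfs1), and the range within a complex was wider than the differences between their medians.

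Summed over the 90 genes, the OXPHOS share of mRNA moved little between groups. The lowest sum was 3109.7 ± 22.1 CPM in stage 7 MO embryos and the highest 3378 ± 358 CPM in stage 8 MO embryos (SD, n = 2 each), a ratio of 1.09. The high value rested on the library that stood apart, in which the sum was 3631 CPM against 3125 CPM in the other library of that group. Sums per complex moved in unlike directions with stage. Complex III was highest in stage 6 wildtype, at 706 ± 5.21 CPM, and complex II likewise, at 199.5 ± 0.716 CPM. Such a sum follows its most abundant genes, here uqcrfs1 above all in complex III and sdha and sdhd in complex II. It does not give the direction of every gene. Complex I subunits (712 ± 19.8 CPM), complex IV subunits (350 ± 13.3 CPM) and complex V subunits (741 ± 31.4 CPM) were at their lowest there (SD, n = 2). Single genes moved more than sums: the median gene had a highest group mean 1.57 times its lowest, and the ratio was 3.08 for sdhc and 1.10 for ndufs1; none is given for cox20, with 3 reads in each stage 6 library. Of the 90 genes, 51 had their lowest and 17 their highest group mean in stage 6 wildtype. The same counts were not taken over all genes, of which 69% were called between wildtype stages 6 and 8. They cannot be called particular to OXPHOS genes. In libraries of embryos, fewer cells of a type and less RNA per cell cannot be told apart. Each level is a share of the polyA RNA captured, not an amount per embryo.

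Across the wildtype stages, more OXPHOS genes rose than fell, and those that fell were among the more abundant. At stage 8, 45 of the 90 genes were called higher and 15 lower than at stage 6 (edgeR's quasi-likelihood test, Benjamini-Hochberg adjusted p under 0.05 over all genes tested). Of all 12883 genes tested, 36.4% were called higher and 32.6% lower in this comparison. The median log2 difference was 0.37 over the 90 genes and 0.06 over all genes. The 45 genes that rose had a median level of 16.9 CPM per kb, against 52.3 CPM per kb for the 15 that fell. At stage 7, 33 genes were called higher and 13 lower than at stage 6, against 28.4% and 27.9% of all genes, with a median log2 difference of 0.19 over the 90. At stage 8, 14 were called higher and 7 lower than at stage 7, against 19.1% and 17.6% of all genes, with a median of 0.14. This last count was sensitive to single libraries. It fell when stage 8 wildtype replicate 2 or either stage 7 wildtype library was left out. It rose without stage 8 MO replicate 2, as did the share of all genes called. That library is not compared here, but it enters the shared gene filter, normalization and estimate of spread. The counts for the other wildtype comparisons stayed within 1.5 times their values when any 1 library was left out.

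Each complex held genes that moved either way, in a comparison where 36.4% of all genes were called higher and 32.6% lower. Calls in both directions were thus common over all genes too. Between stages 6 and 8, complex I subunits had 17 called higher and 3 lower of 34, and its assembly factors 3 higher and 2 lower of 6. Complex II had 2 of each among its 4 genes. Complex III had 3 higher and 2 lower of 8, complex IV subunits 5 higher and 2 lower of 12, and complex IV assembly factors 5 higher and 3 lower of 10. Complex V subunits had 9 called higher and 1 lower of 15, and the inhibitor atp5if1 was called higher. In the plot of group levels relative to stage 6 wildtype, each complex holds genes above and genes below their stage 6 level.

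**Figure D3:**
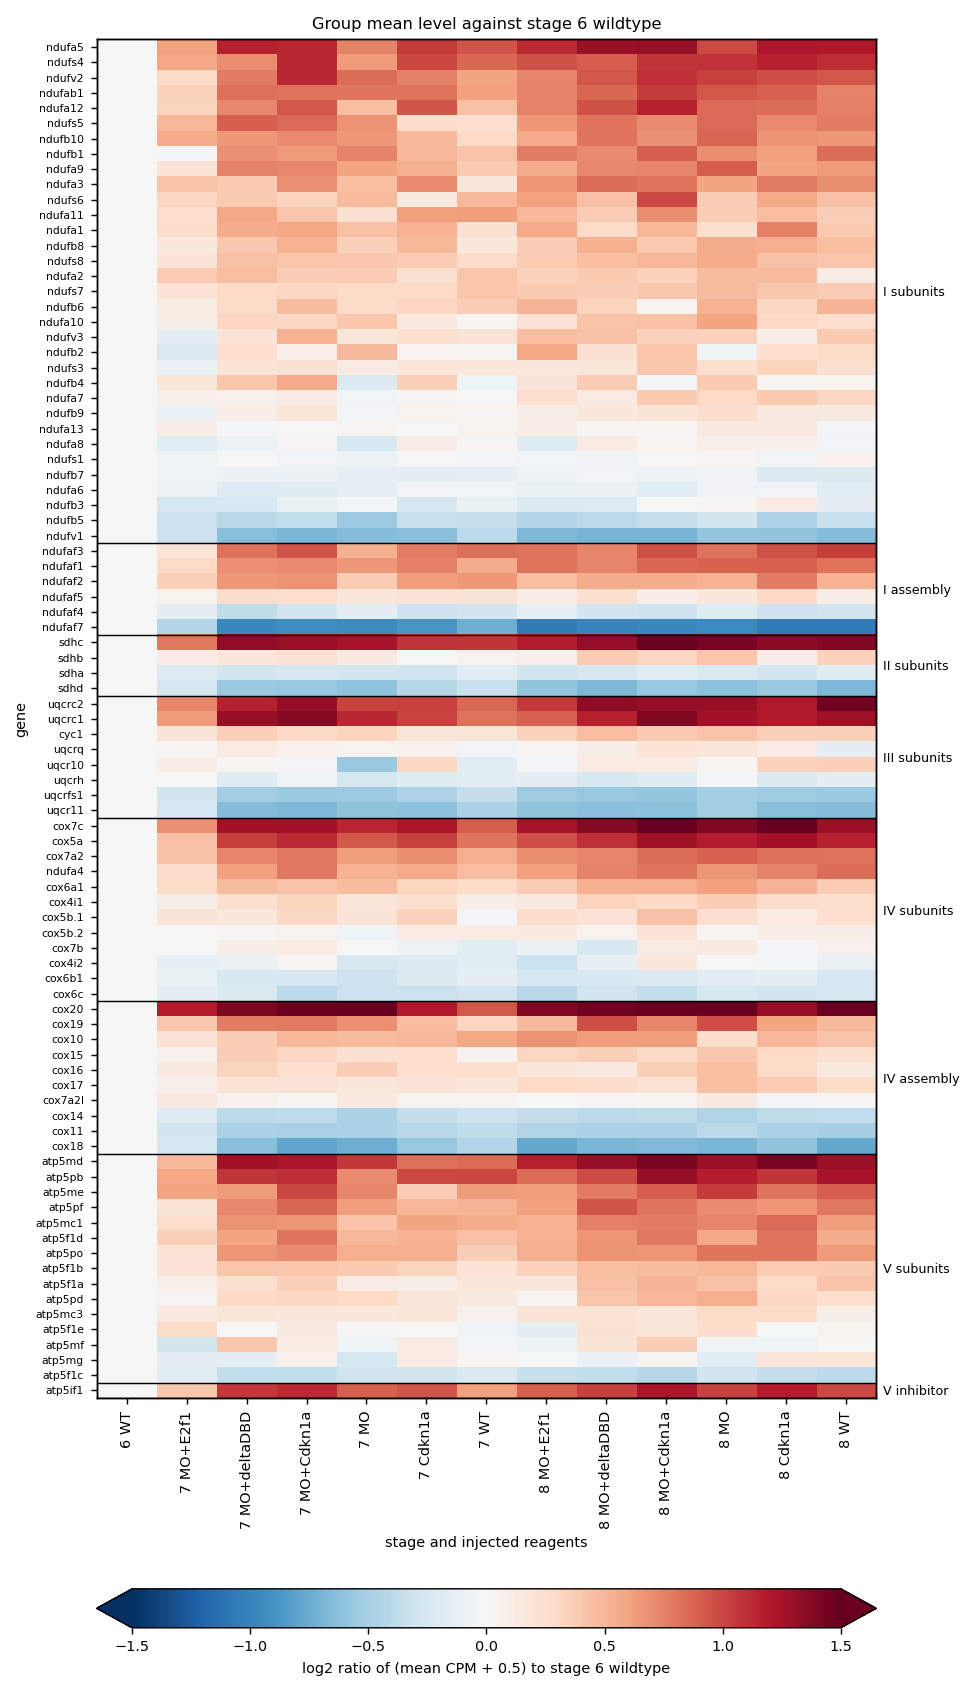
Log2 ratio of the mean CPM of 89 OXPHOS genes (2 libraries, plus 0.5) in each of the 13 groups to the gene's mean in stage 6 wildtype, the blank column at the left; red is above stage 6 and blue below, with genes ordered by complex and role. Over all 90 genes, stage 6 wildtype was the lowest group for 51 and the highest for 17, counts that were not taken over the other genes.

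Among the genes that rose, the complex II anchor sdhc (build Xentr10.0, chromosome 8, bases 141333280 to 141345841) had 10.004 and 10.6 CPM at stage 6, 22.3 and 22.03 at stage 7, and 27.04 and 28.7 at stage 8 in wildtype embryos. The stages did not overlap. Stage 8 exceeded stage 6 by 1.43 ± 0.10 on the log2 scale (SE, adjusted p = 2.3e-14). The other anchor, sdhd, went the opposite way: it had 80.7 and 84.1 CPM at stage 6, 66.3 and 64.5 at stage 7, and 51.2 and 51.8 at stage 8. Its level at stage 8 was lower by -0.68 ± 0.07 (adjusted p = 1.9e-10), again with no overlap of stages. The catalytic genes of the same complex differed by less, sdha by -0.18 ± 0.05 (adjusted p = 0.0031) and sdhb by 0.36 ± 0.14 (adjusted p = 0.019), of which the call of sdhb was lost when the second stage 6 library (adjusted p = 0.219) or the second stage 8 library (adjusted p = 0.438) was left out.

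Complex III showed the same contrast between its parts. The core subunit gene uqcrc2 (chromosome 9, bases 24841890 to 24855071) had 14.4 and 18.007 CPM at stage 6, 30.2 and 29.6 at stage 7, and 40.8 and 49.5 at stage 8. Its partner uqcrc1 had 4.39 and 5.86 CPM at stage 6, 9.15 and 9.59 at stage 7, and 10.2 and 15.9 at stage 8. Both rose, by 1.47 ± 0.10 (adjusted p = 1.7e-14) and 1.34 ± 0.21 (adjusted p = 2.9e-06) between stages 6 and 8. The most abundant gene, uqcrfs1 (chromosome 4, bases 72017365 to 72021240), had 441 and 430 CPM at stage 6, 345 and 334 at stage 7, and 301 and 289 at stage 8. It fell by 0.56 ± 0.04 on the log2 scale (adjusted p = 2.1e-14), and the small subunit gene uqcr11 fell by 0.66 ± 0.06 (adjusted p = 1.3e-11). For uqcrc2 and uqcrfs1 each stage lay apart from the next in every library.

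In complex I the subunit gene with the clearest fall was ndufv1, which carries the site where NADH is oxidised (chromosome 7, bases 58598818 to 58643849). It had 167 and 165 CPM at stage 6, 130 and 123 at stage 7, and 109 and 102 at stage 8, a difference of -0.65 ± 0.05 between stages 8 and 6 (adjusted p = 1e-13). Subunits that rose included ndufa5, an accessory subunit (1.37 ± 0.22, adjusted p = 1.6e-06). The assembly factors split as well. The methyltransferase gene ndufaf7 (chromosome 5, bases 55595708 to 55612819) had 69.2 and 63.5 CPM at stage 6, 40.5 and 39.0 at stage 7, and 31.5 and 32.3 at stage 8. That was a fall of 1.05 ± 0.07 (adjusted p = 8.5e-15), whereas ndufaf3, an early assembly factor, rose by 1.07 ± 0.13 (adjusted p = 6e-09).

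In complex IV the subunit gene cox5a (chromosome 3, bases 93895753 to 93906063) had 14.9 and 19.9 CPM at stage 6, 31.9 and 29.4 at stage 7, and 39.1 and 39.6 at stage 8. The small subunit gene cox7c had 5.61 and 6.67 CPM at stage 6, 13.5 and 10.5 at stage 7, and 15.3 and 16.4 at stage 8. Stage 8 exceeded stage 6 by 1.17 ± 0.11 for cox5a (adjusted p = 4.6e-11) and by 1.36 ± 0.17 for cox7c (adjusted p = 3.7e-08). The late-added subunit gene ndufa4 (0.85 ± 0.10, adjusted p = 1.1e-08) and cox7a2 (0.82 ± 0.09, adjusted p = 2.6e-10) also rose, while cox6b1 fell by 0.26 ± 0.07 (adjusted p = 0.0013). Among assembly factors, cox18, which inserts a mitochondrially encoded subunit into the membrane, fell by 0.78 ± 0.08 (adjusted p = 2.4e-10) and cox11 by 0.50 ± 0.06 (adjusted p = 7.9e-10). The chaperone gene cox20 was called higher at stage 8, at 1.25 and 2.01 CPM, but each stage 6 library held only 3 reads of it, so no fold is given.

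Subunits of ATP synthase were uneven across the stages. The peripheral stalk gene atp5pb had 5.48 and 6.42 CPM at stage 6, 13.3 and 11.7 at stage 7, and 13.5 and 15.8 at stage 8, a rise of 1.30 ± 0.16 between stages 6 and 8 (adjusted p = 1.3e-08). The small membrane subunit gene atp5md rose by 1.44 ± 0.22 (adjusted p = 4e-07) and the inhibitor gene atp5if1 by 1.06 ± 0.21 (adjusted p = 5.1e-05). The small membrane subunit gene atp5mf (-0.01 ± 0.32, adjusted p = 0.977) and the peripheral stalk gene atp5pd (0.26 ± 0.13, adjusted p = 0.0837) were not called. In the catalytic head, atp5f1b rose by 0.39 ± 0.05 (adjusted p = 1.3e-08). The central stalk gene atp5f1c, with 201 and 212 CPM at stage 6 and 158 and 156 CPM at stage 8, was the only subunit gene of the complex called lower (-0.39 ± 0.05, adjusted p = 8.3e-09). Apart from that of sdhb, the calls given here between stages 8 and 6 held with any 1 library of the comparison left out. The genes sdhb, uqcrc1, atp5pb, atp5mf, atp5pd and atp5f1b lie outside the rule for naming genes in this comparison and were chosen after their values were seen.

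**Figure D4:**
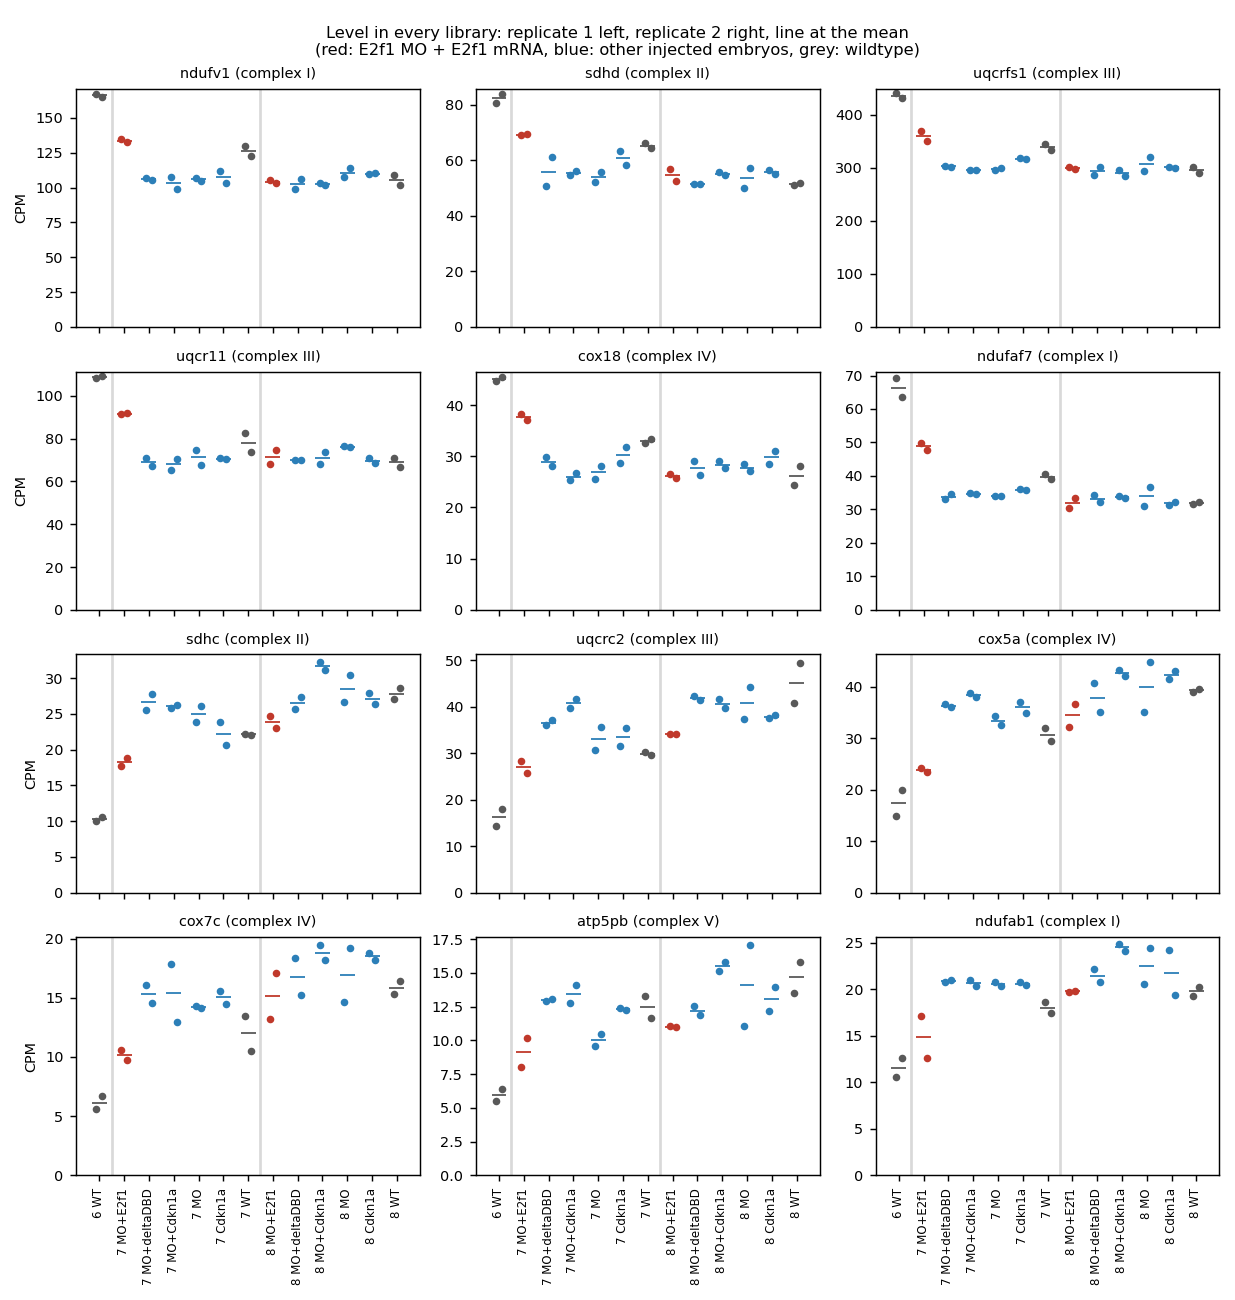
Level in CPM (own scale per panel) of 12 OXPHOS genes, chosen with their values known, in each of the 26 libraries, by stage and group, with MO+E2f1 embryos in red, other injected embryos in blue and wildtype in grey; bars are means of 2 libraries. At stage 7 the red mean lies between that of stage 6 and that of the MO alone in each panel, for example at 135 and 132 CPM of ndufv1 against 107 and 105 CPM with the MO alone.

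Stage 7 embryos with the MO alone differed from stage 7 wildtype in few OXPHOS genes. Of the 90, 4 were called higher and 5 lower, against 12.7% and 12.5% of all genes tested. The 5 called lower were ndufv1, uqcrfs1, sdhd, cox18 and ndufaf7. The 4 called higher were atp5f1b, ndufa10, ndufb10 and cox20. For ndufv1 the MO libraries had 107 and 105 CPM and the wildtype libraries 130 and 123 CPM, a difference of -0.25 ± 0.05 (SE, adjusted p = 0.0003). For uqcrfs1 they were 296 and 300 CPM with the MO and 345 and 334 CPM in wildtype (-0.19 ± 0.04, adjusted p = 0.00058). The complex I accessory subunit gene ndufa10 had 29.1 and 29.6 CPM with the MO and 22.5 and 22.2 CPM in wildtype (0.39 ± 0.11, adjusted p = 0.0055). The groups did not overlap in any of these. These 3 calls held with any 1 library left out, whereas each of the other 6 was lost without at least 1 library, with adjusted p of 0.0555 to 0.238 there. Those libraries were MO replicate 1 for sdhd, MO replicate 1 or wildtype replicate 2 for cox18, MO replicate 2 or wildtype replicate 2 for atp5f1b, MO replicate 2 or either wildtype library for cox20, either MO library or wildtype replicate 2 for ndufb10, and any of the 4 for ndufaf7. Fewer genes were called without stage 7 wildtype replicate 2. More of the 90, and a larger share of all genes, were called without stage 8 MO replicate 2. That library enters this comparison only through the shared gene filter, normalization and spread.

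Adding E2f1 mRNA to MO embryos at stage 7 went with more calls than the MO alone gave against wildtype, among OXPHOS genes and all genes. Against the MO alone, 12 of the 90 genes were called higher and 21 lower, where 22.4% and 23% of all genes tested were. The lower calls were thus near the share of all genes, and the higher calls were below it. The medians were -0.13 over the 90 genes and -0.02 over all genes. Called higher were ndufv1, ndufaf7, sdhd, 4 genes of complex III and 4 of complex IV with cox18 and cox11 among them, and atp5f1c. Called lower were 7 complex I subunits, sdhc, uqcrc1, uqcrc2, 3 complex IV subunits, 4 of complex V and the inhibitor atp5if1, and 3 assembly factors. The total of 33 came to 15 without MO replicate 2, to 17 without MO+E2f1 replicate 2 and to 20 without MO+E2f1 replicate 1, so the count depends on single libraries while at least 8 of the calls do not.

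Among the genes called higher with E2f1 mRNA, ndufaf7 had 49.7 and 47.9 CPM in MO+E2f1 embryos and 33.9 and 33.9 CPM with the MO alone. The difference was 0.52 ± 0.07 (SE, adjusted p = 5.3e-07). The Rieske gene uqcrfs1 had 370 and 351 CPM in MO+E2f1 embryos and 296 and 300 CPM with the MO alone (0.28 ± 0.04, adjusted p = 9e-07). Both groups lay apart in both genes. Likewise ndufv1 was higher by 0.33 ± 0.05 (adjusted p = 1.6e-06), uqcr11 by 0.36 ± 0.06 (adjusted p = 9.3e-06), cox18 by 0.49 ± 0.08 (adjusted p = 9.8e-06) and sdhd by 0.36 ± 0.07 (adjusted p = 7.1e-05). Among those called lower, sdhc had 17.7 and 18.8 CPM in MO+E2f1 embryos and 23.9 and 26.1 CPM with the MO alone (-0.45 ± 0.09, adjusted p = 0.00017). The subunit gene cox5a had 24.3 and 23.3 CPM in MO+E2f1 embryos and 34.4 and 32.5 CPM with the MO alone (-0.49 ± 0.11, adjusted p = 0.00031). These 8 calls held with any 1 library left out. Others did not: ndufab1, the mitochondrial acyl carrier protein (-0.47, adjusted p = 0.0016), was lost without MO+E2f1 replicate 2 (adjusted p = 0.111), ndufv2 (-0.59, adjusted p = 0.0039) without MO replicate 2 (adjusted p = 0.145), and atp5f1b (-0.18, adjusted p = 0.0023) without MO replicate 2 (adjusted p = 0.0611).

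The deltaDBD mRNA gave no such difference. Against the MO alone at stage 7, none of the 90 genes was called by edgeR's quasi-likelihood test, and 0.031% of all genes tested were. At an unadjusted p under 0.05 there were 7 higher and 1 lower, and DESeq2 called 0. The share of all genes at that unadjusted threshold was not taken, so such counts, here and below, have nothing to be set against. The genes of smallest p, atp5mc1, atp5pb and ndufaf4, differed by 0.25, 0.38 and -0.24, each with an adjusted p of 0.95. Set directly against each other, MO+E2f1 embryos had 9 genes called higher and 26 lower than MO+deltaDBD embryos, where 22.6% and 23.9% of all genes were called. Here ndufaf7 had 49.7 and 47.9 CPM in MO+E2f1 embryos and 33.2 and 34.5 CPM in MO+deltaDBD embryos (0.53 ± 0.08, adjusted p = 5.5e-07). The values of cox5a were 24.3 and 23.3 CPM in MO+E2f1 embryos and 36.7 and 36.0 CPM in MO+deltaDBD embryos (-0.61 ± 0.11, adjusted p = 1.8e-05). For sdhc they were 17.7 and 18.8 CPM in MO+E2f1 embryos and 25.6 and 27.8 CPM in MO+deltaDBD embryos (-0.55 ± 0.09, adjusted p = 1.2e-05). No library of one group reached the other in these 3 genes. Other large differences within a complex were -0.69 ± 0.19 for uqcrc1 (adjusted p = 0.0043) and -0.85 ± 0.32 for atp5mf, a small membrane subunit of ATP synthase (adjusted p = 0.029), of which the second was lost without any 1 of the 4 libraries (adjusted p = 0.0806 to 0.115). The call of sdhd (0.31, adjusted p = 0.00053) was lost without MO+deltaDBD replicate 1 (adjusted p = 0.0813). By complex, ATP synthase subunits had 1 gene called higher and 7 lower of 15. Complex I subunits had 1 higher and 8 lower of 34, with lower calls near the share of all genes.

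The stage 7 comparisons can be read by what each gene did across wildtype stages 6 and 8, which share no library with them; this is a description, since the split uses results of the same fit. Of the 45 OXPHOS genes called higher at stage 8 than at stage 6, all 45 had estimates below 0 and 21 were called lower in MO+E2f1 against MO embryos at stage 7. Of the 15 called lower, all 15 had estimates above 0 and 10 were called higher. Of the 30 not called across stages, 15 were above 0 and 2 were called higher. Against MO+deltaDBD embryos, 25 of the 45 (55.6%) were called lower and 9 of the 15 (60%) higher. The other genes of the table split in the same directions. Of those called higher across stages, 62.9% were called lower against MO+deltaDBD embryos. Of those called lower across stages, 67.2% were called higher. In MO+E2f1 against MO embryos, 94.4% of the former had estimates below 0 and 95.8% of the latter had estimates above 0. Of 4642 other genes called higher at stage 8 than at stage 6, 60.5% were called lower in MO+E2f1 against MO embryos, beside 46.7% of the 45, and of 4181 called lower, 65.7% were called higher, beside 66.7% of the 15. In stage 7 MO embryos against wildtype, 34 of the 45 had estimates above 0 (median 0.14), beside 85.4% of the 4642 other genes (median 0.17), and 4 (8.89%) were called higher, beside 32.8%. Of the 15, 13 had estimates below 0 (median -0.17), beside 87.7% of the 4181 (median -0.13), and 5 (33.3%) were called lower, beside 35%. In MO+deltaDBD against MO embryos, 36 of the 45 had estimates above 0 (median 0.09), beside 55.9% of the 4642 (median 0.02). There 5 of the 15 had estimates below 0 (median 0.03), beside 55.8% of the 4181 (median -0.007).

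Against stage 7 wildtype, MO+E2f1 embryos had 2 genes called higher and 5 lower, where 6.82% and 6.2% of all genes were called. Called higher were ndufaf7 (0.30 ± 0.07, adjusted p = 0.0065) and uqcr11 (0.23 ± 0.06, adjusted p = 0.011). Called lower were ndufaf3, cox5a, atp5mc1, atp5pb and sdhc. The assembly factor gene ndufaf3 had 13.9 and 12.8 CPM in MO+E2f1 embryos and 19.7 and 21.9 CPM in wildtype, with no overlap (-0.64 ± 0.13, adjusted p = 0.0011). Its call was the only one of the 7 that held with any 1 library left out. The total fell when any 1 library of the comparison was left out. DESeq2 called 4, but it gave no adjusted p for 13 of the OXPHOS genes.

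Cdkn1a mRNA at stage 7 gave few calls in these genes. Against wildtype, 1 gene was called, where 1.93% of all genes were called higher and 2.82% lower: ndufv1, with 112 and 104 CPM in Cdkn1a embryos and 130 and 123 CPM in wildtype (-0.23 ± 0.05, adjusted p = 0.008). At an unadjusted p under 0.05 there were 9 higher and 4 lower. Of the 45 genes called higher at stage 8 than at stage 6 in wildtype, 33 had estimates above 0 in Cdkn1a embryos against wildtype (median 0.11), and of the 15 called lower, 14 had estimates below 0 (median -0.08). Among the other genes, 79% of the 4642 were above 0 and 85.5% of the 4181 below 0, with medians of 0.10 and -0.09. The call of ndufv1 was lost without wildtype replicate 1 and without Cdkn1a replicate 2. More OXPHOS genes, and a larger share of all genes, were called without stage 8 MO replicate 2. That library enters this comparison only through the shared gene filter, normalization and spread. Next came ndufa3 (0.56, adjusted p = 0.058) and ndufb8 (0.37, adjusted p = 0.095), accessory subunits of complex I. Adding Cdkn1a mRNA to MO embryos gave 0 calls by edgeR's quasi-likelihood test, where 1.4% of all genes were called, with 17 higher and 1 lower at an unadjusted p under 0.05 and 0 by DESeq2. The 1.4% refers to adjusted p and cannot be set beside the unadjusted counts. Of the 45 genes called higher across stages, 39 had estimates above 0 (median 0.17), beside 63.7% of the 4642 other genes (median 0.04). Of the 15 called lower, 8 had estimates below 0 (median -0.007), beside 64.6% of the 4181 (median -0.03). The genes of smallest p were ndufaf3 (0.42, adjusted p = 0.072), uqcrc2 (0.30, adjusted p = 0.11) and atp5mg (0.34, adjusted p = 0.17). Without stage 8 MO replicate 2, 6 of the OXPHOS genes were called, beside 5.06% of all genes.

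At stage 8 the comparisons of injected groups held few calls, and those with the MO group turned on its second library. Against wildtype, MO embryos had 1 gene called higher, atp5mc3, where 1.72% of all genes were called higher and 2.6% lower. It had 150 and 181 CPM in MO embryos and 145 and 144 CPM in wildtype (0.19 ± 0.05, adjusted p = 0.033). The MO libraries lay above both wildtype libraries, the second far more than the first. Without that second library the estimate was 0.05 (adjusted p = 0.673), and the call was also lost without wildtype replicate 1 (adjusted p = 0.119) and without wildtype replicate 2 (adjusted p = 0.201). Without MO replicate 2, 0 genes were called higher and 3 lower and the median of the 90 was -0.10; without MO replicate 1, 20 were called higher and 0 lower and the median was 0.21. The sign of the OXPHOS genes as a group against stage 8 wildtype thus depended on which MO library was kept. Over all genes tested the median was 0.0044 without MO replicate 2 and 0.0047 without MO replicate 1. The share of all genes called in either direction also rose without MO replicate 1. It was not taken by direction in that setting, whereas the OXPHOS calls there were all higher. The 3 called lower without MO replicate 2 were atp5mg, ndufaf3 and ndufa4. The ATP synthase membrane subunit gene atp5mg had 13.3 and 18.9 CPM in MO embryos and 20.5 and 20.8 CPM in wildtype. Its estimate was -0.36 ± 0.12 (adjusted p = 0.071) with both MO libraries and -0.63 (adjusted p = 0.00067) without replicate 2.

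With mRNA added to MO embryos at stage 8, the results also turned on the second MO library. The share of all genes called in either direction rose without MO replicate 1 here too. With E2f1 mRNA, 0 genes were called higher and 3 lower than with the MO alone, where 3.14% and 2.92% of all genes were: the peripheral stalk gene atp5pd (-0.52 ± 0.13, adjusted p = 0.0094), ndufa10 (-0.38 ± 0.10, adjusted p = 0.019) and atp5f1b (-0.16 ± 0.05, adjusted p = 0.048). For atp5pd the MO+E2f1 libraries had 10.5 and 11.9 CPM and the MO libraries 14.3 and 17.95 CPM. Without MO replicate 2 none of these calls held, at estimates of -0.36, -0.18 and -0.07. The median of the 90 was then 0.03, and it was -0.26 without MO replicate 1. Over all genes tested these medians were -0.00032 and -0.0097. The number of calls also fell when either MO+E2f1 library was left out. With deltaDBD mRNA edgeR's quasi-likelihood test called 0 genes against the MO alone, where 1.03% of all genes were called, with 0 higher and 3 lower at an unadjusted p under 0.05 and 0 by DESeq2. The median of the 90 was 0.07 without MO replicate 2 and -0.19 without MO replicate 1, beside -0.00097 and -0.0062 over all genes. With Cdkn1a mRNA edgeR's quasi-likelihood test called 0 genes, where 1.82% of all genes were called, with 3 higher and 5 lower at an unadjusted p under 0.05 and 0 by DESeq2. Here the median of the 90 was 0.13 without MO replicate 2 and -0.14 without MO replicate 1, beside -0.0056 and 0.0021 over all genes. Without MO replicate 2, estimates above 0 numbered 50 of the 90 with E2f1 mRNA, 68 with deltaDBD mRNA and 65 with Cdkn1a mRNA. The absence of higher calls in these comparisons did not hold in that setting.

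Stage 8 comparisons that do not use the MO group were as sparse. MO+E2f1 against MO+deltaDBD embryos gave 0 calls by edgeR's quasi-likelihood test, where 1.6% of all genes were called, with 0 higher and 12 lower at an unadjusted p under 0.05 and 0 by DESeq2. The smallest p belonged to uqcrc2 (-0.29, adjusted p = 0.13). Against wildtype, MO+E2f1 embryos had 1 gene called lower, uqcrc2, where 2.1% of all genes were called higher and 3.66% lower. It had 34.1 and 34.1 CPM in MO+E2f1 embryos and 40.8 and 49.5 CPM in wildtype (-0.41 ± 0.09, adjusted p = 0.0037), and the call was lost without wildtype replicate 2 (adjusted p = 0.26) and without MO+E2f1 replicate 2 (adjusted p = 0.0546). Cdkn1a embryos also had 1 gene called against wildtype, atp5mc3, which was higher, where 2.81% of all genes were called higher and 3.41% lower. It had 168 and 163 CPM in Cdkn1a embryos and 145 and 144 CPM in wildtype (0.19 ± 0.05, adjusted p = 0.024), but the call was lost without any 1 of the 4 libraries (adjusted p = 0.0883 to 0.235), and DESeq2 called 0. Estimates for the same 45 and 15 genes are not set against the stage change here, since these comparisons share the stage 8 wildtype libraries with it.

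Whether the MO effect itself differed between the stages was tested directly, as the difference at stage 8 minus that at stage 7. It was called higher for 6 genes and lower for 0, where 7.4% and 8.75% of all genes were called. The 6 were ndufv1 (0.32 ± 0.07, adjusted p = 0.0019), uqcrfs1 (0.25 ± 0.06, adjusted p = 0.0027), sdhd (0.34 ± 0.10, adjusted p = 0.019), cox18 (0.38 ± 0.12, adjusted p = 0.025), uqcr11 (0.28 ± 0.09, adjusted p = 0.027) and ndufaf7 (0.32 ± 0.11, adjusted p = 0.04). For ndufv1 the MO and wildtype libraries had 107 and 105 CPM against 130 and 123 CPM at stage 7, and 108 and 114 CPM against 109 and 102 CPM at stage 8. The groups lay apart at stage 7 and overlapped at stage 8. Without stage 8 MO replicate 2, ndufaf7 (0.19) and sdhd (0.24) lost their calls. The absence of lower calls did not hold in that setting either, and 33 of the 90 estimates were above 0. The median of the 90 was then -0.11, beside -0.019 over all genes. Without stage 8 MO replicate 1 these medians were 0.20 and -0.025. The share of all genes called was larger in both settings than with all libraries. The calls of ndufv1 and uqcrfs1 held with any 1 of the 8 libraries left out. The total came to 2 when stage 7 wildtype replicate 1 was left out, and to 3 when stage 7 MO replicate 1 was.

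**Figure D5:**
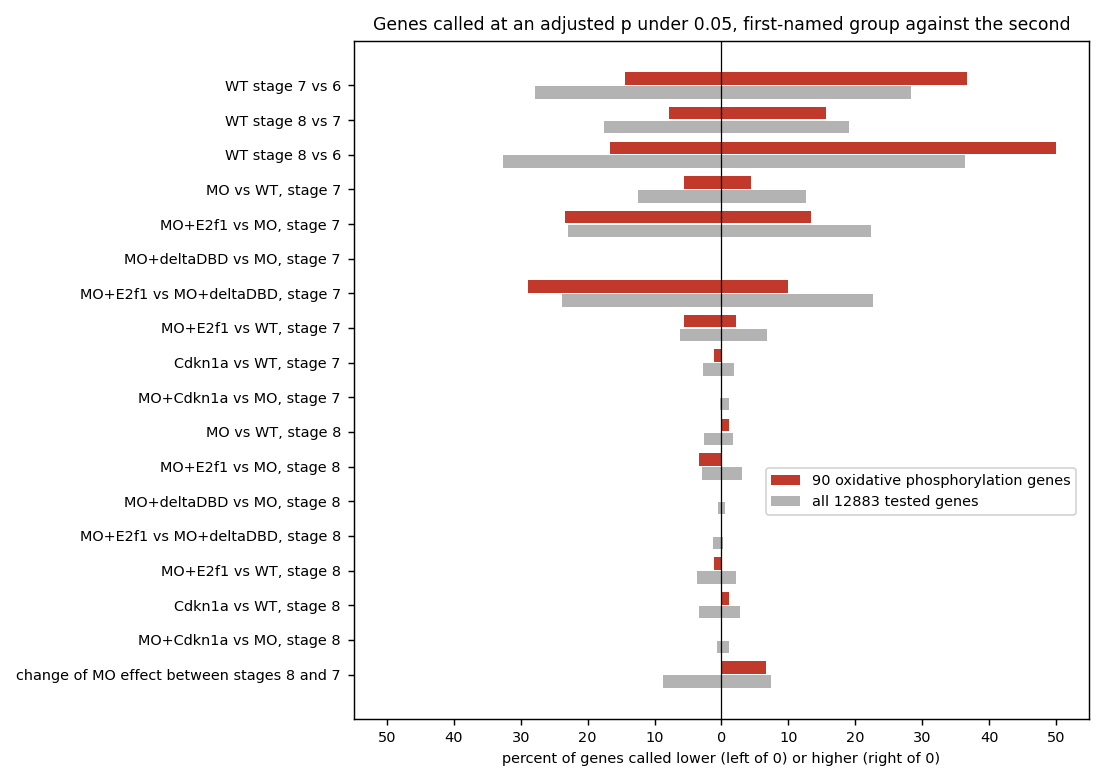
Share of genes called higher or lower in each comparison, as a percentage of the 90 OXPHOS genes (red) and of all 12883 genes tested (grey). The OXPHOS share exceeded the share of all genes for higher calls across the wildtype stages 6 and 8 (45 of 90 against 36.4%), and most stage 8 comparisons of injected embryos had few calls of either kind.

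Other mitochondrial and metabolic genes, from lists chosen with earlier results of these data known, are given for comparison. Between wildtype stages 8 and 6, where 36.4% of all genes were called higher and 32.6% lower, TCA cycle genes had 13 called higher and 3 lower of 17. Among them dlst, of the oxoglutarate dehydrogenase complex, fell by 0.72 ± 0.05 (adjusted p = 1.4e-15). Genes of mitochondrial DNA upkeep and transcription had 11 higher and 3 lower of 18, with polg, the mitochondrial DNA polymerase, up by 2.12 ± 0.13 (adjusted p = 3.5e-16). Cytochrome c and assembly factors outside the symbol rule had 20 higher and 7 lower of 36. In that list cycs, somatic cytochrome c, fell by 0.47 ± 0.04 (adjusted p = 1.6e-11), whereas sdhaf2, which helps attach flavin to sdha, rose by 2.63 ± 0.22 (adjusted p = 1.8e-12). Coenzyme Q synthesis had 6 higher and 4 lower of 13, carriers and porins 8 and 7 of 18, nuclear regulators of respiratory genes 4 and 3 of 11, mitochondrial import 9 and 6 of 22, and mitochondrial ribosomal proteins 31 and 21 of 77. Glycolysis had 11 higher and 4 lower of 18, with the muscle-type phosphofructokinase gene pfkm up by 1.42 ± 0.10 (adjusted p = 2.1e-14). Cytosolic ribosomal proteins had 12 higher and 25 lower of 77, with lower calls near the share of all genes. The higher calls of nuclear regulators and the lower calls of coenzyme Q synthesis were near it too.

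In MO+E2f1 against MO embryos at stage 7, where 22.4% of all genes were called higher and 23% lower, TCA cycle genes had 3 called higher and 13 lower of 17, and mitochondrial DNA genes 2 and 9 of 18. There dlst was higher by 0.33 ± 0.05 (adjusted p = 5.1e-07) and cycs higher by 0.23 ± 0.04 (adjusted p = 4.0e-05). Other assembly factors and cytochrome c had 3 higher and 8 lower of 36, coenzyme Q synthesis 1 and 3 of 13, carriers and porins 5 and 4 of 18, nuclear regulators 2 and 5 of 11, glycolysis 4 and 6 of 18, mitochondrial import 2 and 5 of 22, and mitochondrial ribosomal proteins 14 and 18 of 77. Among the nuclear regulators, pprc1, a coactivator of respiratory genes, was lower by -0.72 ± 0.10 (adjusted p = 3.9e-07). Cytosolic ribosomal proteins had 18 higher and 2 lower of 77. The lower calls of mitochondrial import and mitochondrial ribosomal proteins were near the share of all genes. So were those of coenzyme Q synthesis, carriers and porins, other assembly factors with cytochrome c, and the OXPHOS genes themselves. The higher calls of glycolysis and cytosolic ribosomal proteins were also near the share of all genes. The transcripts of mitochondrial DNA itself were not analysed here.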

How the data were processed

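PolyA RNA of embryos was extracted as total RNA and prepared with a stranded mRNA kit, per the labels' protocols. The deposited values are raw fragment counts per gene; the authors counted them with featureCounts 2.0.1 on the Xentr10.0 annotation, reverse-stranded, with both mates mapped and without the option that counts multi-mapped fragments, per the file headers. The submitters' processing notes also name fastp, STAR 2.7.0e and deepTools, without their roles or settings. The summed exon length of each gene is the authors' value from the same table. Libraries took their groups from the labels, 2 per group; the MO+E2f1 and MO+deltaDBD columns were told apart by their names.

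Counts were normalized by TMM and tested with edgeR 4.0.16 (quasi-likelihood, robust; limma 3.58.1, R 4.3.3) as 13 group means over 26 libraries, with 13 residual degrees of freedom shared by all comparisons. Genes passed filterByExpr by group (minimum count 10), leaving 12883, and p-values were adjusted by Benjamini-Hochberg over these; a call is an adjusted p under 0.05, and SE is the log2 difference over the root of F. The biological coefficient of variation was 3.93%. CPM use TMM-scaled library sizes; CPM per kb divides by summed exon length. In all, 18 comparisons were made. The script was tested on simulated data.

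Genes named in a comparison were, per complex and direction, the called subunit and assembly factor of largest change, up to 4 further called genes of smallest p per direction, and the 3 of smallest p where fewer than 3 were called; also the 5 highest and 5 lowest in level, paralogs, the largest differences between the stage 8 MO libraries, those whose MO effect differed between stages, and up to 3 called genes per other list. Some genes are counted but not reported by name here. The members and all lists were chosen with earlier results of these data known. Alternatives tried were median-of-ratios size factors, DESeq2 1.42.0, no count filter, the replicate number as a block, removal of a trend with gene length (loess, span 0.5), only the stages compared, and each library left out; leaving out stage 8 MO replicate 2 where it is not compared was added after seeing the data.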

Additional observations from a re-analysis of the deposited data

Results flagged for a closer look

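The MO effect on 6 OXPHOS genes differed between stages 8 and 7 by a test of that difference (edgeR's quasi-likelihood test, adjusted over all genes). All 6 were called higher, where 7.4% of all genes tested were called higher and 8.75% lower. In either direction 16.1% of all genes were called, a larger share than among the OXPHOS genes. The median log2 difference over the OXPHOS genes was 0.05, and it was -0.11 without stage 8 MO replicate 2. The difference at stage 8 minus that at stage 7, on the log2 scale, was 0.32 for ndufv1, 0.25 for uqcrfs1, 0.34 for sdhd, 0.38 for cox18, 0.28 for uqcr11 and 0.32 for ndufaf7. At stage 7 the MO embryos were called lower than wildtype for 5 of these genes, and uqcr11 differed by -0.13 on the log2 scale without a call (adjusted p = 0.115). At stage 8 none of the 6 was called in this comparison, with adjusted p between 0.211 for uqcr11 and 0.724 for sdhd. Without stage 8 MO replicate 2 the differences were 0.28 for ndufv1, 0.19 for uqcrfs1, 0.42 for cox18 and 0.28 for uqcr11. Those for ndufaf7 (0.19) and sdhd (0.24) lost their calls. In that setting 33 of the 90 differences were above 0, and the absence of lower calls among the OXPHOS genes did not hold.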

How the results depend on the processing

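Counts of OXPHOS genes called follow as the count reported, then the lowest and highest count when 1 library was left out (stage 8 MO replicate 2 included). For wildtype they were 46, 34 and 50 at stage 7 against 6, 21, 8 and 33 at stage 8 against 7, and 60, 50 and 63 at stage 8 against 6. At stage 7 they were 9, 5 and 16 for MO against wildtype, 33, 15 and 37 for MO+E2f1 against MO, 35, 25 and 42 for MO+E2f1 against MO+deltaDBD, and 7, 1 and 9 for MO+E2f1 against wildtype. They were 0, 0 and 0 for MO+deltaDBD against MO, 1, 0 and 8 for Cdkn1a against wildtype, and 0, 0 and 6 for MO+Cdkn1a against MO. At stage 8 they were 1, 0 and 20 for MO against wildtype, 3, 0 and 36 for MO+E2f1 against MO, 0, 0 and 23 for MO+deltaDBD against MO, and 0, 0 and 3 for MO+E2f1 against MO+deltaDBD. They were 1, 0 and 4 for MO+E2f1 against wildtype, 1, 0 and 2 for Cdkn1a against wildtype, and 0, 0 and 18 for MO+Cdkn1a against MO. The change of the MO effect gave 6, 2 and 13. The highest counts for comparisons that use the stage 8 MO group came without its replicate 1. That leaves replicate 2 alone in its group, assumed to vary like the others. No share of all genes is set beside the counts in this section, so they cannot be read as particular to OXPHOS genes.

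Fitting only the stages compared gave 17 calls for MO, 11 for MO+E2f1 and 8 for Cdkn1a against wildtype and 6 for MO+Cdkn1a against MO at stage 7, and 0 for MO and Cdkn1a against wildtype and 1 for MO+E2f1 against MO at stage 8. DESeq2 gave 4 for MO+E2f1 against wildtype at stage 7, where 13 OXPHOS genes had no adjusted p, and 0 for Cdkn1a against wildtype at stage 8. With no count filter there were 2 for Cdkn1a against wildtype and 2 for MO+Cdkn1a against MO at stage 7. At stage 8 that setting gave 3 for MO against wildtype, 9 for MO+E2f1 against MO, 2 for MO+E2f1 against MO+deltaDBD, 3 for MO+E2f1 against wildtype and 2 for Cdkn1a against wildtype. With the length trend removed there were 4 for Cdkn1a against wildtype and 1 for MO+Cdkn1a against MO at stage 7, and at stage 8 2 for MO, 3 for MO+E2f1 and 2 for Cdkn1a against wildtype. Median-of-ratios size factors gave 2 for MO against wildtype at stage 8. The causes were not tested.

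Libraries of the same replicate number did not deviate together (correlations between -0.07 and 0.058), so the numbers were not taken as pairs; the replicate block gave 2 calls for MO+E2f1 against wildtype at stage 8 and every other count stayed within 1.5 times. No named gene's call reversed. Depth of 14071614 to 19032710 fragments and 2 libraries per group limit the lowest genes, such as cox20.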
